A study of Homo sapiens with 12 samples.

Results

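XAF1, LGALS9, LAMP3, SECTM1 and CD7 are 5 protein-coding genes whose RNA stood far higher with each of 2 siRNAs against uc.110 than with a scrambled siRNA in A172 cells. They were picked for the size of that rise with both siRNAs, and they are 5 of 15008 protein-coding intervals tested and of 24907 gene intervals tested in all. Their values against scrambled are therefore given as a description with no test. The difference between the siRNAs was not what the genes were picked on, although it uses the same libraries, and it is tested.

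A172 is an established human glioblastoma cell line, labelled as wild type, grown as adherent cells. uc.110 is a transcribed ultraconserved region, a stretch of genome kept almost without change between mammals. All 12 libraries came from cells that received an siRNA with Lipofectamine, so transfection is common to every group. Each well was given 3 µL of siRNA from a 20 µM stock for 6 hours, and RNA was taken on day 2. The 3 groups, scrambled, siRNA-1 and siRNA-2, have 4 libraries each. The labels do not say whether the 4 libraries of a group were separate cultures, so p-values measure the spread between these libraries, which may be technical. The model is 1 cell line, and no group without transfection was analysed here.

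The genes belong to the immune side of cell biology. XAF1 encodes a factor that binds XIAP, the inhibitor of caspases, and is known as a gene that interferon switches on. LGALS9 encodes galectin-9, a secreted lectin that binds sugars on cell surface proteins, TIM-3 among them. LAMP3 encodes a lysosomal membrane glycoprotein best known from mature dendritic cells, SECTM1 a secreted and membrane-bound protein that is a ligand of CD7, and CD7 a surface glycoprotein of T and NK cells. Interferons act through receptors, JAK kinases and STAT and IRF factors, and these factors bind short DNA motifs near the start of their target genes, among them the ISRE and the GAS.

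Promoter windows of 250 bases before to 50 bases after the gene start, from RefSeq (GRCh38.p14), were at hand for XAF1, LGALS9 and SECTM1 and were searched for an ISRE-type motif, the letters GAAA, any 2 bases and GAAA again, on both strands. LGALS9 and SECTM1 each held 1 match. The stretches around the matches are printed on the gene's strand with the match in capitals, beside those of IFITM1, ISG15, BST2 and RSAD2, the genes among the 12 with the largest rises that also held a match.
LGALS9 (chr17:27631169-27631198, plus strand): gttgctttggTTTCTATTTCtttgttaagt
SECTM1 (chr17:82333750-82333779, minus strand): ctctcgtgtcTTTCATTTTCctggggctcc
IFITM1 (chr11:313990-314019, plus strand): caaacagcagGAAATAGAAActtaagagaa
ISG15 (chr1:1013374-1013403, plus strand): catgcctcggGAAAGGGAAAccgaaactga
BST2 (chr19:17405741-17405770, minus strand): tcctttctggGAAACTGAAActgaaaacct
RSAD2 (chr2:6877622-6877651, plus strand): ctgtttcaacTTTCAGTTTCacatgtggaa
In LGALS9 the match took bases 242 to 251 of the window, where base 251 is the gene start, and in SECTM1 bases 248 to 257. Both matches lie on the strand opposite to the gene. Read on that strand, the LGALS9 match is GAAATAGAAA, the same letters as in IFITM1, and the SECTM1 match is GAAAATGAAA. In the GENCODE annotation all 30 bases of both stretches are also part of an untranslated exon of a longer transcript. The motif was present in 3.57% of 35116 promoter windows and in 4.38% of 27305 genes with a window. It was in 24 of the 31 genes of the interferon-stimulated list that had a window. IFITM1, ISG15 and BST2 each held 2 matches, of which the first is printed. RSAD2 also had a window at an earlier start, which held no match. The shorter motif GAAANNGAA, which any longer match contains, was in 8.11% of windows, 9.86% of genes and the same pair of members. A GAS-type motif, TTCNNNGAA, was in 7.66% of windows and 9.38% of genes. It was in none of the 3 members with a window and in 9 of the 31 list genes.

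XAF1, the gene with the largest rise, had 2 RefSeq starts, and neither window held these letters. Only exact matches were searched, so near matches in either window were not counted. The bases before the later start are all part of an annotated untranslated exon, as the LGALS9 and SECTM1 stretches are, and are not shown in full. They hold the letters tttcagtttt, a near match that differs from an opposite-strand match in its last letter. How often such near matches occur in other promoters was not tested. The 250 bases before the earlier start, which no annotated untranslated exon covers, are shown because this gene changed most and this window lacks the exact match.
XAF1 (chr17:6755197-6755446, plus strand): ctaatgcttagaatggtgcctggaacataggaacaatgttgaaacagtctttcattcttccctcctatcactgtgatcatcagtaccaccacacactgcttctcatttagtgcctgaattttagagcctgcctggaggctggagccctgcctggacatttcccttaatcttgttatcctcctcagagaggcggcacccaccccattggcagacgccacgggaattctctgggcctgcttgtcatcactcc

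The libraries held between 43435791 and 54588527 reads in gene intervals. The reads listed for uc.110 itself were few: 11 over the scrambled group (at most 6 in a library), 5 over the siRNA-1 group (at most 2) and 7 over the siRNA-2 group (at most 4), so the knockdown could not be read at this depth. Some libraries stood apart. In scrambled 1, 1432 gene intervals held reads and had none in any other library, where the others had 82 to 158 such intervals. All 39 interferon-stimulated genes tested were higher in scrambled 1 than in the other 3 scrambled libraries, while 27.7% of all genes tested were. Reads on the 45S ribosomal precursor were 14.3% of siRNA-1 replicate 3 and 8.34% of siRNA-2 replicate 2, against 1.69% to 5.0% in the other 10 libraries. Member values are given with and without scrambled 1. The closing section says whether calls on members changed without all 3 libraries.

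XAF1 went from a low level to a clear one, and it rose further with siRNA-2. Its interval is on chromosome 17, bases 6755408 to 6775647 of hg38, plus strand. In the scrambled libraries it had 5.14, 1.84, 2.07 and 1.65 CPM (read counts scaled to a library of 1000000 reads) in replicates 1 to 4. With siRNA-1 it had 33.9, 42.2, 39.8 and 33.7 CPM, and with siRNA-2 78.4, 79.9, 66.9 and 74.4 CPM. The 3 groups were apart with no overlap, and scrambled 1 was the highest of its group. Group means were 2.68 ± 1.65 CPM (SD, n = 4), 37.4 ± 4.26 CPM and 74.9 ± 5.81 CPM. The fitted log2 fold change against scrambled was 3.82 (SE 0.27) with siRNA-1 and 4.82 (SE 0.27) with siRNA-2, about 14.1-fold and 28.2-fold. Without scrambled 1 these became 4.30 (SE 0.13) and 5.31 (SE 0.13). In RNA from whole cultures, more cells with the transcript and more transcript per cell cannot be told apart. The lowest siRNA-1 library was 6.56 times the highest scrambled library. Across all genes tested, 25.2% had every siRNA-1 library above every scrambled library, and 27.8% had every siRNA-2 library above them. The members were picked for large rises with both siRNAs, which makes such a separation likely.

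LGALS9 was high to a similar degree with either siRNA. Its interval, on chromosome 17 from 27628350 to 27653746, plus strand, runs 2838 bases before and 4186 bases beyond the RefSeq gene. The scrambled libraries had 13.3, 7.40, 8.74 and 5.93 CPM, the siRNA-1 libraries 102, 100, 107 and 111 CPM, and the siRNA-2 libraries 111, 102, 103 and 114 CPM. Both siRNA groups lay above every scrambled library and overlapped each other, and scrambled 1 was again the highest of its group. Group means were 8.85 ± 3.20 CPM (SD, n = 4), 105 ± 5.06 CPM and 107 ± 5.84 CPM. The log2 fold change against scrambled was 3.57 (SE 0.19) with siRNA-1 and 3.60 (SE 0.19) with siRNA-2, and without scrambled 1 it was 3.80 and 3.84. LGALS9 has near-identical copies, and the treatment of reads shared with them is not given in the sources. LGALS9B, one such copy, had a mean of 0.585 CPM in scrambled, 0.672 CPM with siRNA-1 and 0.588 CPM with siRNA-2, and LGALS9C was not used here.

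LAMP3 was barely read in scrambled libraries. It lies on chromosome 3, from 183122214 to 183169608, minus strand. The interval runs 5795 bases above the RefSeq gene, toward that of MCF2L2, which lies 6507 bases further on the same strand. MCF2L2, whose transcription runs toward LAMP3, had a mean of 32.5 CPM in scrambled. Whether some of the reads counted for LAMP3 came from MCF2L2 transcripts was not tested. LAMP3 had 0.744, 0.444, 0.463 and 0.355 CPM in the scrambled libraries, which rest on 17 to 34 reads each. It had 4.06, 5.39, 5.71 and 4.20 CPM with siRNA-1 and 7.61, 6.48, 6.45 and 7.62 CPM with siRNA-2. No group overlapped another, and the scrambled 1 value was the highest of the controls. The log2 fold change was 3.27 (SE 0.17) with siRNA-1 and 3.81 (SE 0.17) with siRNA-2, and without scrambled 1 it was 3.48 and 4.03.

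SECTM1, the ligand, and CD7, its receptor, are neighbours on chromosome 17, both on the minus strand. SECTM1 spans 82321024 to 82334045 and CD7 82311746 to 82320829, with 194 bases between the intervals. SECTM1 had 2.14, 1.65, 2.19 and 1.59 CPM in the scrambled libraries, 15.7, 17.9, 18.6 and 18.3 CPM with siRNA-1, and 28.2, 28.0, 24.6 and 29.6 CPM with siRNA-2. The groups did not overlap, and scrambled 1 was not the highest control. The log2 fold change was 3.21 (SE 0.09) with siRNA-1 and 3.87 (SE 0.09) with siRNA-2, and it barely moved without scrambled 1, to 3.25 and 3.90.

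CD7 was the member with the fewest reads. The scrambled libraries held 11, 17, 9 and 17 reads, or 0.241, 0.359, 0.181 and 0.355 CPM. With siRNA-1 CD7 had 2.25, 1.76, 2.42 and 2.09 CPM, and with siRNA-2 3.73, 4.50, 3.47 and 3.14 CPM. Again no group overlapped another, and scrambled 1 was among the lower controls. The log2 fold change was 2.89 (SE 0.21) with siRNA-1 and 3.70 (SE 0.20) with siRNA-2, and without scrambled 1 it was 2.80 and 3.61. The CD7 interval runs 3127 bases below and 3221 bases above the RefSeq gene, the latter on the side of SECTM1, whose transcription runs toward CD7. Its count was between 8.26% and 22.4% of the SECTM1 count over the 12 libraries. Whether some of the reads counted for CD7 came from SECTM1 transcripts was not tested.

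**Figure D1:**
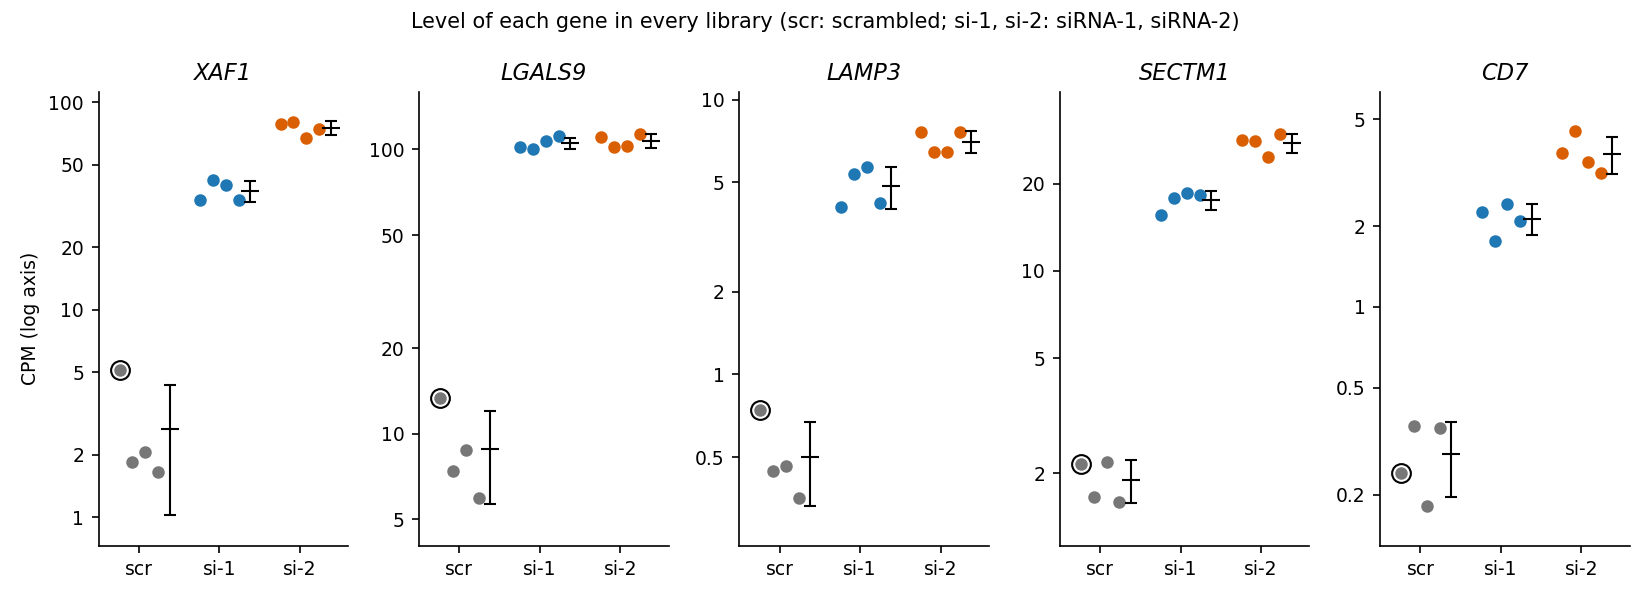
CPM of each gene (log axis) in the 4 scrambled, 4 siRNA-1 and 4 siRNA-2 libraries, with points in replicate order from left to right, bars for mean ± SD and a ring around scrambled 1. Every siRNA library lies above every scrambled library, the siRNA groups overlap for LGALS9 only among these genes, and XAF1 runs from 1.65 to 79.9 CPM.

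The siRNAs differed from each other for 4 of the 5 genes. Each was tested with edgeR's quasi-likelihood test, with Benjamini-Hochberg adjustment over all 24907 gene intervals, of which 15.8% were called higher with siRNA-2 than with siRNA-1, 16.8% lower and 32.6% in either direction. XAF1 was 2.00-fold higher with siRNA-2, a log2 fold change of 1.00 (SE 0.21, 95% interval 0.54 to 1.47, edgeR adjusted p = 0.00436). CD7 was 1.75-fold higher, at 0.80 (SE 0.15, 0.49 to 1.12, edgeR adjusted p = 2.02e-04). SECTM1 was 1.57-fold higher, at 0.65 (SE 0.07, 0.50 to 0.80, edgeR adjusted p = 1.73e-07). LAMP3 was 1.45-fold higher, at 0.54 (SE 0.13, 0.27 to 0.81, edgeR adjusted p = 0.00208). For each of these genes all 4 siRNA-2 libraries lay above all 4 siRNA-1 libraries, which held for 15.7% of genes tested. For LGALS9 no difference was found, at 0.03 (SE 0.16, edgeR adjusted p = 0.917), with a 95% interval from -0.33 to 0.38.

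Ratios between 2 members within a library do not depend on how libraries are scaled. Of the 10 pairs, 6 had a log2 ratio that differed between the siRNA-2 and siRNA-1 libraries by an exact two-sided permutation test of 4 against 4, each at the smallest p the design allows, 0.0286 (Benjamini-Hochberg adjusted over the pairs, 0.0476). XAF1 gained 0.98 over LGALS9, 0.45 over LAMP3 and 0.35 over SECTM1 with siRNA-2. LGALS9 fell by 0.52 relative to LAMP3, by 0.62 relative to SECTM1 and by 0.77 relative to CD7. The other 4 pairs, XAF1 with CD7 and LAMP3, SECTM1 and CD7 among themselves, gave adjusted exact p-values of 0.408 to 0.429. The ratio of SECTM1 to CD7 differed by -0.15, with group SDs of 0.25 and 0.24.

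**Figure D2:**
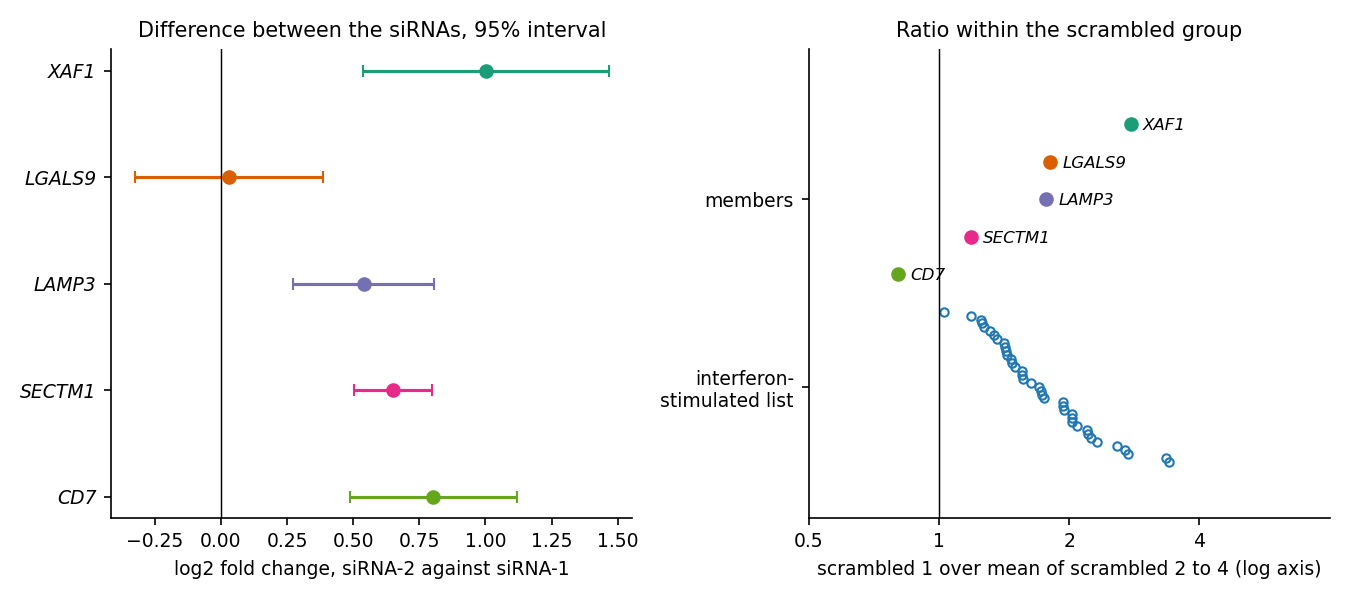
Left, log2 fold change of siRNA-2 against siRNA-1 with its 95% interval for each gene; right, the level in scrambled 1 divided by the mean of scrambled 2 to 4 (log axis) for the members and, as open circles, for the 39 interferon-stimulated genes tested. The LGALS9 interval crosses 0 and the other 4 do not, and XAF1 has a ratio of 2.77 where CD7 has 0.806.

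Within the scrambled group the members differed in how scrambled 1 stood to the other libraries. Scrambled 1 over the mean of the other 3 was 2.77 for XAF1, 1.81 for LGALS9, 1.77 for LAMP3, 1.18 for SECTM1 and 0.806 for CD7. The median was 1.70 over the 39 interferon-stimulated genes tested and 0.999 over all genes tested. XAF1, LGALS9 and LAMP3 were highest in scrambled 1, as every gene of that list was, and SECTM1 and CD7 were not. The CD7 ratio rests on 11 reads in scrambled 1 against 17, 9 and 17 in scrambled 2 to 4, where counting error is large. A single library has no replicate, so the differences between members have no test.

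Ranked by the smaller of the 2 log2 fold changes against scrambled, among 12379 protein-coding genes at an average of 1 log2 CPM or more, XAF1, LGALS9, LAMP3 and SECTM1 took ranks 1 to 4 and CD7 rank 9. Between SECTM1 and CD7 stood IFITM1, a membrane protein that blocks virus entry, at 3.11 and 3.50, ZBP1, which senses Z-form RNA and DNA, at 3.04 and 4.16, ISG15, a ubiquitin-like modifier, at 2.93 and 3.25, and OASL, an OAS-like antiviral protein, at 2.93 and 3.49. After CD7 came BST2, which tethers virus particles, at 2.75 and 3.38, RSAD2, the antiviral enzyme viperin, at 2.71 and 3.09, and MMP13, a collagenase, at 2.64 and 3.28. Without scrambled 1, XAF1 and LGALS9 kept ranks 1 and 2, LAMP3 took rank 4, SECTM1 rank 6 and CD7 rank 14. With no minimum level, CD7, whose average of 1.07 log2 CPM is just above the minimum, took rank 17. Of all genes tested, 25 (0.1%) were at least 8-fold higher with both siRNAs and 170 (0.683%) at least 4-fold higher. Both comparisons use the same scrambled libraries, and the members' own values are given side by side for that reason.

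**Figure D3:**
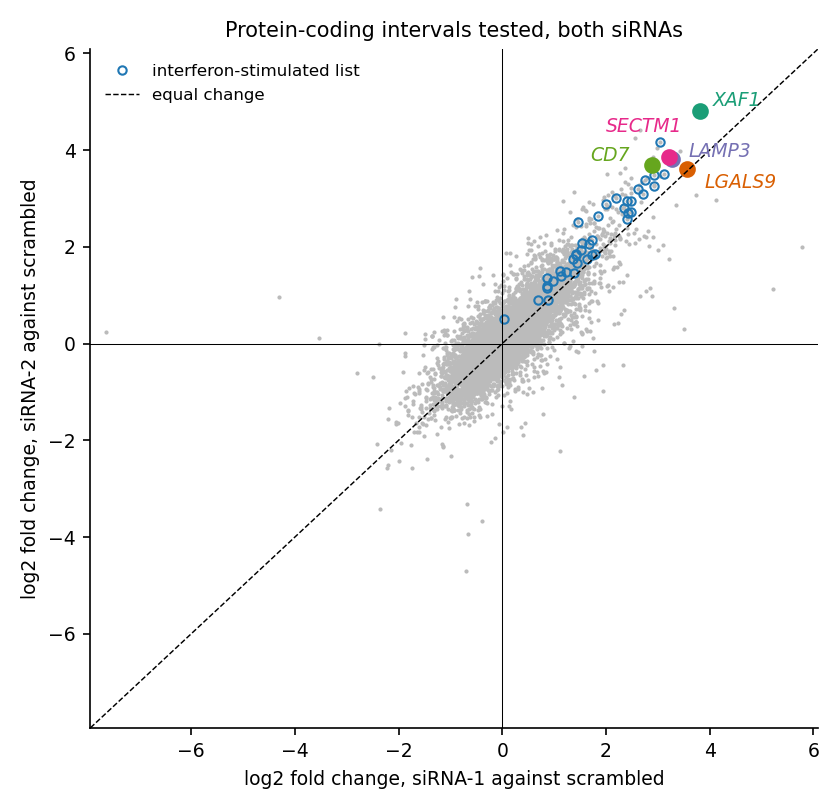
Log2 fold change against scrambled with siRNA-1 (x axis) and siRNA-2 (y axis) for each protein-coding interval tested (grey), the 39 interferon-stimulated genes tested (open circles) and the 5 named genes (coloured); the dashed line marks equal change. XAF1 stands at 3.82 and 4.82 and LGALS9 at 3.57 and 3.60; both axes share the same scrambled libraries.

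The genes most alike in profile to each member were found by the root mean square difference between log2 CPM profiles over the 12 libraries, each centred on its own mean, against 15007 other protein-coding genes. XAF1 was closest to ZBP1, at 0.46 log2 units. LGALS9 was closest to IFITM1 (0.21) and ISG15 (0.25), and LAMP3 to OASL (0.18) and SECTM1 (0.19). CD7 was closest to MMP13 (0.38) and to TNFSF13B, the B cell survival factor BAFF (0.39), with SECTM1 next at 0.41. All profiles share the same libraries and the same large step from scrambled to siRNA, so these distances describe and are not tested.

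Of the 5 members, 4 sit on chromosome 17, which holds 5.83% of the protein-coding intervals tested, at 3 separate places. None of the tested genes nearest on each side reached the members' size of change. FBXO39, beside XAF1 and too low to be tested, had 4, 33 and 86 reads over scrambled, siRNA-1 and siRNA-2. Of the 86, 57 came from siRNA-2 replicate 4. Below LGALS9, KSR1, a scaffold of the RAS and MAP kinase pathway that ends 1907 bases before the LGALS9 interval on the same strand, rose with a log2 fold change of 0.59 with siRNA-1 and 0.77 with siRNA-2. Above it, NOS2, the inducible nitric oxide synthase, rose by 1.66 and 2.15, on group sums of 11, 35 and 54 reads in scrambled, siRNA-1 and siRNA-2. WSB1 did not pass the test (-0.07 and -0.02), and LYRM9 fell by 0.25, a call lost without scrambled replicate 2, 3 or 4 or siRNA-1 replicate 2 or 3, and by 0.41. The NOS2 call with siRNA-1 was lost without the 3 libraries that stand apart.

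Around CD7 and SECTM1, TEX19, a germ line gene, rose by 1.17 and 1.69, CSNK1D, a casein kinase, by 0.13 and 0.20, and SLC16A3, a lactate transporter, by 0.17 and 0.37. UTS2R stood at 0.18 and 0.75 and did not pass, although with siRNA-2 it was called without scrambled 1, at 1.23 (edgeR adjusted p = 0.0135), and without siRNA-2 replicate 4, at 1.00. Around LAMP3, the values of MCCC1, DCUN1D1, MCF2L2 and B3GNT5 reached at most 0.32. Beside XAF1, C17orf100 stood at -0.09 with siRNA-1 and rose by 0.48 with siRNA-2, and SLC13A5 was read 0 to 5 times per library.

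FBXO39 begins 537 bases past the end of XAF1 on the same strand and was too low to be tested. Scrambled replicates 1 to 4 held 2, 0, 2 and 0 of its reads, the siRNA-1 replicates 7, 10, 8 and 8, and the siRNA-2 replicates 11, 11, 7 and 57. Every siRNA library was above every scrambled library. TEKT1, whose interval overlaps the far end of FBXO39 on the other strand, had 0 to 6 reads in 11 libraries and 56 in siRNA-2 replicate 4. The calls in these 2 paragraphs on neighbours are those of edgeR at an adjusted p of 0.05, a threshold that 53.5% of all genes passed with siRNA-1 and 56.1% with siRNA-2.

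**Figure D4:**
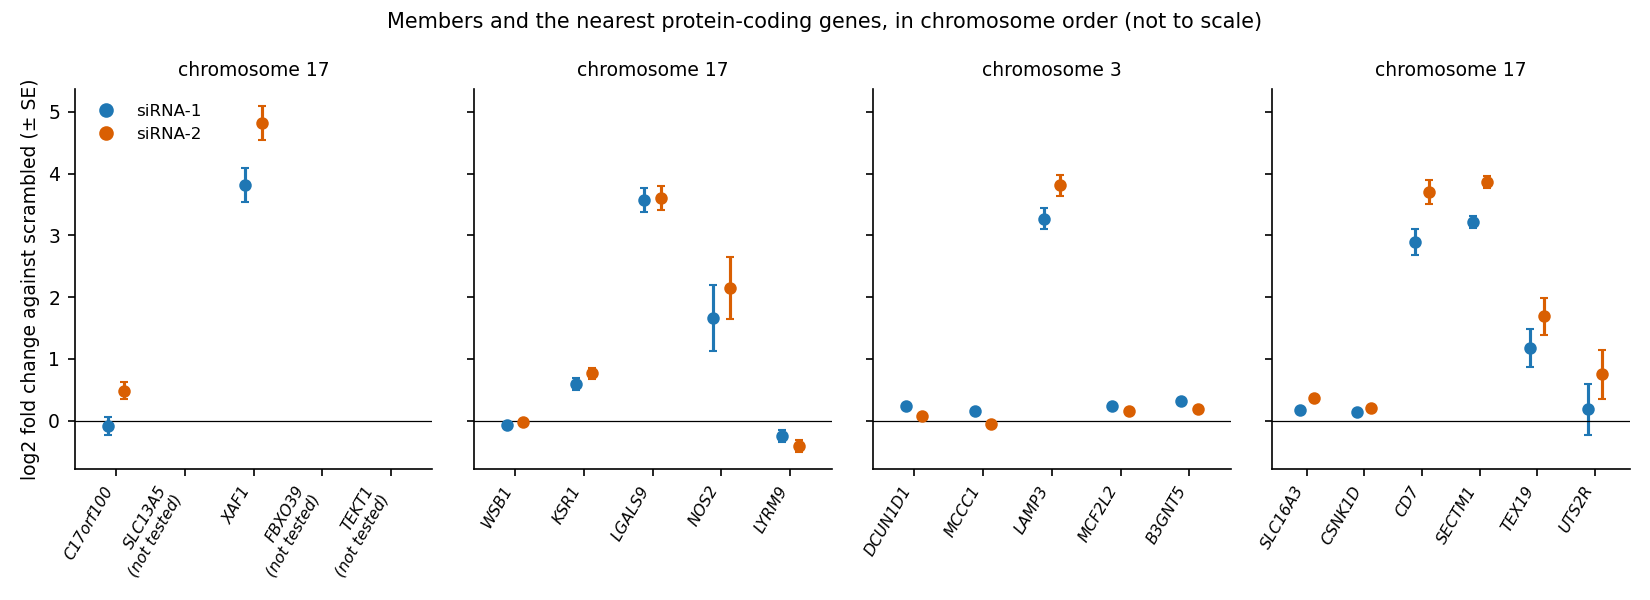
Log2 fold change against scrambled (± SE) with siRNA-1 and siRNA-2 for the members and the nearest protein-coding genes on each side, in chromosome order and not to scale. XAF1, LGALS9, LAMP3, CD7 and SECTM1 stand at 2.89 or more, and each tested neighbour at 2.15 or less. FBXO39, SLC13A5 and TEKT1 were too low to be tested and have no point.

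The interferon pathway around these genes was described by lists that leave the members out. Of 39 interferon-stimulated genes tested, 38 rose with siRNA-1 and 39 with siRNA-2 by edgeR's test and none fell, where 28.6% and 29.9% of all genes rose and 24.9% and 26.2% fell. Their median log2 fold change was 1.68 and 2.06, where that of all genes was 0.01 and 0.01. IFIT2, which binds viral RNA, rose by 1.46 and 2.52, and TRIM21, an intracellular antibody receptor, by 0.87 and 1.36. IFI35 stood at 0.04 with siRNA-1, the exception, and rose by 0.51 with siRNA-2. Summed over the list, the level was 2144 to 2552 CPM in scrambled 2 to 4, 3769 CPM in scrambled 1, 8988 to 9388 CPM with siRNA-1 and 11294 to 11978 CPM with siRNA-2. Between the siRNAs, 15 of the 39 genes were called higher with siRNA-2 and none lower, with a median of 0.39. Over all genes, 15.8% were called higher and 16.8% lower. Without scrambled 1, 31 of the 39 were called higher.

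Upstream of that response, of 4 interferon receptor genes tested, IL10RB, a subunit of the type III receptor, rose by 1.20 and 1.22, and IFNGR1, of the interferon gamma receptor, by 0.29 and 0.27. IFNAR1, a subunit of the type I receptor, fell by 0.14 and by 0.32. IFNAR2 rose by 0.15 with siRNA-1, a call lost without scrambled 1 or 4 or siRNA-1 replicate 1, and fell by 0.15 with siRNA-2. The interferon genes themselves were almost unread, and 2 are named here after their counts were seen. IFNB1 had 0 to 2 reads in a scrambled library, 2 to 4 in an siRNA-1 library and 3 to 6 in an siRNA-2 library. IFNL1 had 0 reads in all scrambled libraries, 2 to 6 in each siRNA-1 library and 1 to 8 in each siRNA-2 library. IFNA1, IFNA2 and IFNG had no read in any library.

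Of 13 JAK, STAT and IRF genes tested, 10 rose and 1 fell with siRNA-1, and 10 rose and 2 fell with siRNA-2, with medians of 0.28 and 0.26. SOCS1, which brakes JAK signalling, rose by 1.49 and 0.78 and was lower with siRNA-2 than with siRNA-1, the reverse of 4 members. IRF3 rose by 0.57 and 0.60. Of 15 genes of antigen presentation and guanylate-binding proteins tested, 13 rose and 2 fell with each siRNA, with medians of 0.98 and 1.29, and 10 were higher with siRNA-2 than with siRNA-1. GBP5, a guanylate-binding protein, rose by 1.77 and 2.50, and NLRC5, an activator of MHC class I genes, by 0.98 and 1.38.

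The members' own families had smaller fold changes. Of 7 galectin genes tested, 3 rose and 2 fell with siRNA-1, and 1 rose and 1 fell with siRNA-2. Galectin-1, from LGALS1, fell by 0.38 and by 0.12, LGALS3 rose by 0.19 and 0.13, and LGALS8 stood at -0.01 and 0.01 and passed neither test. The LGALS3 call with siRNA-2 was lost without scrambled 1, 2 or 3. It was also lost without siRNA-1 replicate 2, 3 or 4 or siRNA-2 replicate 2 or 3. LGALS12 rose by 1.46 and LGALSL by 0.43 with siRNA-1, against -0.17 and -0.03 with siRNA-2, and LGALS2 fell by 1.03 with siRNA-1 and stood at -0.20 with siRNA-2. LGALS9B stood at 0.20 and 0.00, and CLC, LGALS13, LGALS14 and LGALS16 were too low to be tested.

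Of 3 LAMP family genes tested, 3 rose with siRNA-1 and 1 with siRNA-2, where 28.6% and 29.9% of all genes rose and 24.9% and 26.2% fell. LAMP1 and LAMP2, the main proteins of the lysosomal membrane, rose by 0.09 and 0.21 with siRNA-1 and stood at 0.02 and 0.06 with siRNA-2. The LAMP1 call was lost without scrambled 1, 2 or 4 or siRNA-1 replicate 1, 3 or 4. It was also lost without siRNA-2 replicate 1, 2 or 3. CD68, a macrophage relative of the family, rose by 0.94 and 2.04 and was 1.11 higher with siRNA-2 than with siRNA-1, and its interval overlaps that of another gene. LAMP5 was too low to be tested. Around XAF1, XIAP, the protein it is named for, fell by 0.30 and by 0.55, BIRC3, another inhibitor of apoptosis, by 1.08 and by 0.89, and BIRC5, survivin, by 0.50 and by 0.53. Of 10 genes of the inhibitor of apoptosis family and its antagonists and caspases tested, 2 rose and 3 fell with siRNA-1 and 3 rose and 4 fell with siRNA-2. These counts stand beside the same shares of all genes as for the LAMP family. Without scrambled 1, 1 of these 10 genes rose with each siRNA and 3 and 5 fell.

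**Figure D5:**
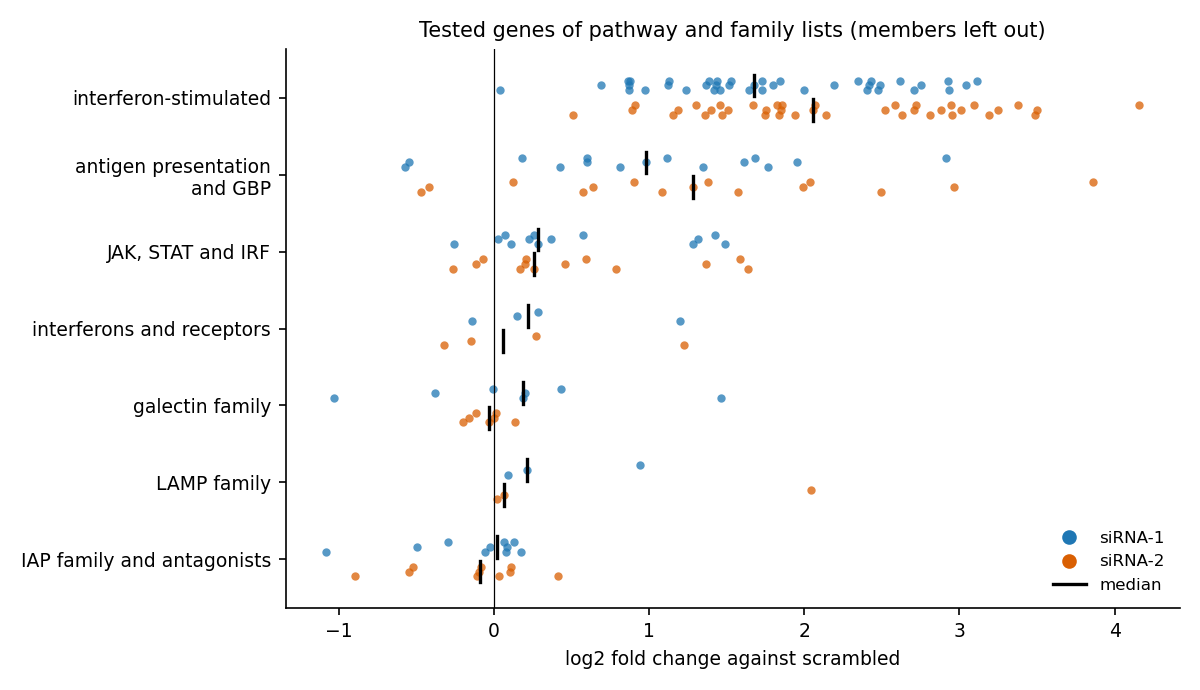
Log2 fold change against scrambled with siRNA-1 and siRNA-2 for the tested genes of 7 pathway and family lists, which leave the members out; black bars are medians. The interferon-stimulated medians are 1.68 and 2.06, and those of the galectin, LAMP and inhibitor of apoptosis lists lie between -0.09 and 0.21.

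Known binding partners of galectin-9 and CD7 were mostly well read. CD44, a hyaluronan receptor, fell by 0.23 with siRNA-1 and rose by 0.30 with siRNA-2. P4HB, a protein disulfide isomerase, rose by 0.24 and 0.20, and CD40, a receptor of the TNF family, by 1.03 and 1.28 from a mean of 0.347 CPM. HAVCR2, which encodes TIM-3, had 3 to 10 reads per library and was not tested.

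LAMP3 and CD7 are markers of dendritic and T cells, so other markers of these cells were read. None of the T cell genes was at 0 in all libraries, and the 14 together came to 2.19 to 3.17 CPM with scrambled, 2.09 to 2.79 CPM with siRNA-1 and 2.81 to 3.07 CPM with siRNA-2. CD3D, CD3E and CD3G, which form the T cell receptor complex and are named for that reason, had at most 4 reads in any library. Of the 5 T cell genes tested, CD4 rose by 1.68 with siRNA-1, a call lost without scrambled replicate 2, 3 or 4 or siRNA-1 replicate 3, and by 2.15 with siRNA-2, from a mean of 0.0477 CPM. CD247, the zeta chain of the same complex, fell by 0.51 with siRNA-1 and stood at 0.10 with siRNA-2. Its siRNA-1 call was lost without scrambled replicate 1 or 3 or siRNA-1 replicate 1 or 2. Of 6 dendritic cell genes tested, none rose, and 5 fell with siRNA-1 and 3 with siRNA-2. CD83, a marker of mature dendritic cells, fell by 0.55 and by 1.52 while LAMP3 was higher, and CD1C had no read. The 14 dendritic genes summed to 409 to 438 CPM with scrambled, 344 to 402 CPM with siRNA-1 and 434 to 481 CPM with siRNA-2. Most of that sum was FSCN1, the actin-bundling protein fascin, named after its values were seen, with means of 374, 330 and 404 CPM. FSCN1 fell by 0.18 with siRNA-1 and stood at 0.11 with siRNA-2, which did not pass.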

How the data were processed

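The deposited table holds whole-number read counts per genomic interval, not normalized, for 12 libraries. The submitters' processing notes name Salmon and hg38 without a version or a role, and no source used here gives the counting tool or its handling of strand and shared reads. Of 49731 intervals, 44098 gene intervals were used: ultraconserved and control regions, ribosomal RNA, intervals with the counts of another interval, older or unusable names and intervals that reach more than 100000 bases past their gene were left out. Genes were tested with edgeR 4.0.16 (TMM, filterByExpr with a minimum count of 10, robust quasi-likelihood fit of all 12 libraries, Benjamini-Hochberg adjustment, threshold 0.05) in R 4.3.3, a procedure tested on simulated data. CPM is the count per 1000000 reads of the TMM-scaled library size. The 5 genes and all lists were chosen with earlier results of these data known. Named beside the members were the 2 nearest protein-coding genes on each side, the 12 largest rises, the 3 closest profiles, and from each list up to 4 genes with the smallest p, all galectin and LAMP genes and markers without a read. Alternatives were other scaling, DESeq2 1.42.0, other filters, fewer libraries or features, and the replicate number as a block. Genes were grouped by the labels alone.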

Additional observations from a re-analysis of the deposited data

Results flagged for a closer look

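In groups of 4 libraries, a value was singled out where its gap to the nearest other library, divided by the group's range, exceeded Dixon's 95% critical value for 4 values. Chance singles out about 1 in 20 groups, and 86 groups of members, neighbours and family genes were looked at, of which 6 were singled out. XAF1 in scrambled 1 stood at 5.14 CPM, where the other scrambled libraries lay between 1.65 and 2.07 CPM. FBXO39 in siRNA-2 replicate 4 stood at 1.09 CPM, against 0.135 to 0.251 CPM in the rest of its group, and TEKT1, whose interval overlaps that of FBXO39, stood at 1.07 CPM in the same library, against 0.0185 to 0.0686 CPM. XAF1 itself was at 74.4 CPM in that library, inside the range of its group. C17orf100 in siRNA-2 replicate 2 was lower at 4.10 CPM, against 5.07 to 5.25 CPM. In siRNA-2 replicate 1, NOS2 was lower at 0.114 CPM, a count of 5, against 0.307 to 0.314 CPM, and CSNK1D higher at 296.9 CPM, against 281.6 to 283.7 CPM.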

How the results depend on the processing

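Each member kept the direction of its change against scrambled under all 20 alternatives, and XAF1, LAMP3, SECTM1 and CD7 kept their call between the siRNAs. Leaving out 1 library at a time, the log2 fold change with siRNA-1 ranged from 3.62 to 4.30 for XAF1, 3.40 to 3.80 for LGALS9, 3.12 to 3.48 for LAMP3, 3.12 to 3.30 for SECTM1 and 2.73 to 3.03 for CD7. With siRNA-2 the ranges were 4.63 to 5.31, 3.44 to 3.84, 3.66 to 4.03, 3.77 to 3.95 and 3.53 to 3.83. For XAF1, LGALS9 and LAMP3 the upper end is the fit without scrambled 1. Between the siRNAs, the edgeR or DESeq2 adjusted p of XAF1 ranged from 4.32e-07 to 0.0190 and that of LAMP3 from 1.97e-04 to 0.0109. LGALS9 changed sign at a value near 0: leaving out 1 library, its log2 fold change between the siRNAs ranged from -0.000325 without siRNA-2 replicate 4 (edgeR adjusted p 0.999) to 0.0613 without siRNA-1 replicate 4, and the cause was not tested. Without scrambled 1, siRNA-1 replicate 3 and siRNA-2 replicate 2 together, an alternative chosen after seeing the data, no call on a member changed. Among genes named beside the members, calls with siRNA-1 on LAMP1, IFNAR2, CD247, P2RY12, CD4, LYRM9, MCCC1 and CSNK1D, and with siRNA-2 on LGALS3 and MCF2L2, were lost without at least 1 single library, and WSB1 was called with siRNA-1 without siRNA-1 replicate 3.

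The replicate numbers that the groups share did not pair the libraries, since deviations of same-numbered libraries correlated between -0.134 and 0.118. With a replicate block, 13218 genes were called with siRNA-1, 13919 with siRNA-2 and 8036 between the siRNAs, against 13319, 13976 and 8124 without it, and the adjusted p of XAF1 between the siRNAs became 0.0190. Counts of calls ranged from 9614, where only protein-coding intervals were tested, to 13344 with siRNA-1, from 10036 to 14015 with siRNA-2 and from 6410 to 8303 between the siRNAs. With 9 to 17 reads of CD7 and 17 to 34 of LAMP3 in each scrambled library, counting error adds to the error of their fold changes.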

Other observations

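Markers of the glioma cells themselves had smaller fold changes than the members. Of 8 glial and glioma genes tested, 3 rose and 2 fell with siRNA-1 and 4 rose and 2 fell with siRNA-2 by edgeR's test. VIM, vimentin, fell by 0.65 and by 0.44 on the log2 scale from 2596 CPM. OLIG2, a transcription factor of the oligodendrocyte lineage, rose by 0.95 and 1.07, and GFAP, the astrocyte filament, by 0.43 and 0.26 from 6.18 CPM. AQP4, an astrocyte water channel, had no read in any library. Among 5 macrophage and microglia genes tested, CSF1R, the receptor for the growth factor CSF1, fell by 0.47 and by 0.61 from 242 CPM, CD14 fell by 0.65 with siRNA-1, and P2RY12 rose by 1.05 with siRNA-1 from 0.143 CPM, a call lost without any 1 of scrambled 2 to 4 or of siRNA-1 replicates 2 to 4.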
